A study of Mus musculus with 21 samples.

Results

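The 10 genes described here carry out polyamine synthesis and methionine salvage, and they were chosen by name: Odc1, Amd1, Srm, Sms and Azin1 on the polyamine side, and Mtap, Mri1, Apip, Enoph1 and Adi1 on the salvage side. They are 10 of the 19304 protein-coding genes of at least 2 kb whose bodies were compared with peaks of H3K36me3. H3K36me3, trimethylated lysine 36 of histone H3, is laid over the bodies of transcribed genes by the methyltransferase SETD2, with S-adenosylmethionine as the methyl donor. The mark was mapped by sequencing of immunoprecipitated chromatin (ChIP-seq) in 20 libraries of C2C12, mouse myoblasts that differentiate into muscle cells in culture. There were 5 conditions: the start of the course (day 0), and days 1 and 5 of it, each in control medium or in medium restricted for methionine. Wild-type (WT) cells were profiled with 2 libraries per condition, and 2 lines labelled as Setd2 knockout (KO) with 1 library per line and condition. Nothing in the labels tells whether the WT replicates came from separate cultures, so p-values measure the spread between these libraries, which may be technical.

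Polyamines are small cations that growing cells need. ODC1 makes putrescine from ornithine, AMD1 decarboxylates S-adenosylmethionine to give the aminopropyl donor, and SRM and SMS transfer aminopropyl groups to make spermidine and spermine. AZIN1 resembles ODC1 but has no decarboxylase activity, and it releases ODC1 from the antizymes that inhibit it. Each aminopropyl transfer leaves methylthioadenosine, which MTAP cleaves, and MRI1, APIP, ENOPH1 and ADI1 carry its sugar part through the following steps back towards methionine. Both pathways therefore draw on, or return to, the metabolite that also supplies the methyl group of H3K36me3.

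The value given throughout is cover, the percent of a gene body that lies inside the merged peaks of a library. It measures the reach of called peaks, not how much of the mark was present, and the read depth behind the lists is unknown. In bulk chromatin, a mark lost from some cells and a mark thinned in every cell cannot be told apart. The WT lists covered 140.2 to 183.5 Mb at day 0 and in control medium, and 109.9 to 134.2 Mb under restriction. The KO lists covered 0.00821 to 74.1 Mb, and those of restricted day 1 held only 791 and 127 peaks. Setd2, the targeted gene, had cover of 45.6 to 82.8% in the WT libraries, 0 to 24.0% in KO line 1 and 0 in all libraries of line 2. This checks whether its body still carried the mark, not whether the protein was lost. Of 7 measured markers of leukocytes, endothelium, epithelium, fat cells and neurons, 0 had any cover in a WT library. Of 10 myoblast and myotube genes, 4 had cover at day 0, among them Des and Cdh15, and all 10 had cover on day 1 in control medium.

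RefSeq promoter windows of 300 bases (250 before to 50 after the annotated start, GRCm38.p6) were found for 7 of the 10 members: Odc1, Amd1, Sms, Mtap, Mri1, Apip and Enoph1. No peak of any of the 20 libraries touched one of the 8 windows, of which Sms had 2. Among the members with a known strand, cover began inside the gene in every library that had any. The windows of the 3 salvage genes with called changes are shown. They lie at chr4:89137120-89137419 on the plus strand (Mtap), chr8:84257275-84257574 on the minus strand (Mri1) and chr5:100039744-100040043 on the plus strand (Enoph1), and each is written 5′ to 3′ on the strand of the gene. Capitals mark matches, on either strand, to the motifs searched: the E-box CACGTG, the amino acid response element TGATGNAA, the GC box GGGCGG, the CCAAT box CCAAT and the TATA box TATAAA.
Mtap: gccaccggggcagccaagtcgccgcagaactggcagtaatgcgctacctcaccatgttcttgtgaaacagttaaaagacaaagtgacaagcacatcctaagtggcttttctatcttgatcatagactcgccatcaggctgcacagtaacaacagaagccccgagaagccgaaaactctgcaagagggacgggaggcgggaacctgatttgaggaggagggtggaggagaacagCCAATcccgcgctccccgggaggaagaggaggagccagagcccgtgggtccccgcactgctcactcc
Mri1: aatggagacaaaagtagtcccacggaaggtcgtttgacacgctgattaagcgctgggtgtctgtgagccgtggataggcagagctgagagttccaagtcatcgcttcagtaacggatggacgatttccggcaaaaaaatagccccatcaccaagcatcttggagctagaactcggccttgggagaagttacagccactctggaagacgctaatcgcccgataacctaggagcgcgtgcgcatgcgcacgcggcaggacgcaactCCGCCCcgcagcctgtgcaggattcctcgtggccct
Enoph1: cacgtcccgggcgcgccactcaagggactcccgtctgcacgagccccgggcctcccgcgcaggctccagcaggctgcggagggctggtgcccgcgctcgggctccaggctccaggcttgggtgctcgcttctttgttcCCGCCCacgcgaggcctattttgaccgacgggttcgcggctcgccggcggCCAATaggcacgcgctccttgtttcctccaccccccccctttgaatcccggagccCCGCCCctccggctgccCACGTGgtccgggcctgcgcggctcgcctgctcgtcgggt

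The Mtap window held 1 CCAAT box and the Mri1 window 1 GC box. The Enoph1 window held 1 E-box, 2 GC boxes and 1 CCAAT box. Among 32851 promoter windows of this length, 7.15% held the E-box, 35.7% the GC box, 37.4% the CCAAT box, 3.97% the amino acid response element and 13.6% the TATA box. Of the windows not shown, those of Apip and 1 of Sms held a CCAAT box, the Sms window an E-box as well. GC boxes numbered 4 in the Odc1 window, 4 in the second Sms window, 2 in that of Apip and 1 in that of Amd1. No member window held the letters of the amino acid response element or of the TATA box, which describes these windows only.

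All 10 members had some cover in each of the 10 WT libraries, as did 44.6% of the 19304 genes. Averaged over the 5 WT conditions, cover was 85.1% for Azin1, 62.7% for Mri1, 61.9% for Mtap, 59.1% for Odc1 and 52.2% for Srm. The lower part of the order was Amd1 at 36.1%, Enoph1 at 28.2%, Adi1 at 27.0%, Apip at 25.9% and Sms at 14.7%. The spread within a condition was often larger than the steps in this order, so Mri1, Mtap and Odc1 could not be ranked among themselves, nor could Enoph1, Adi1 and Apip. Amd1 and Sms have copies elsewhere in the genome (Amd2 and the pseudogene Sms-ps), and the treatment of reads shared with a copy is not given in the sources used here, which leaves their cover less certain. Medium and day moved the members unequally. Group means of Mri1 ranged over 60.5 percentage points and those of Mtap over 54.3, while those of Azin1 ranged over 8.65 and those of Apip over 8.45.

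**Figure D1:**
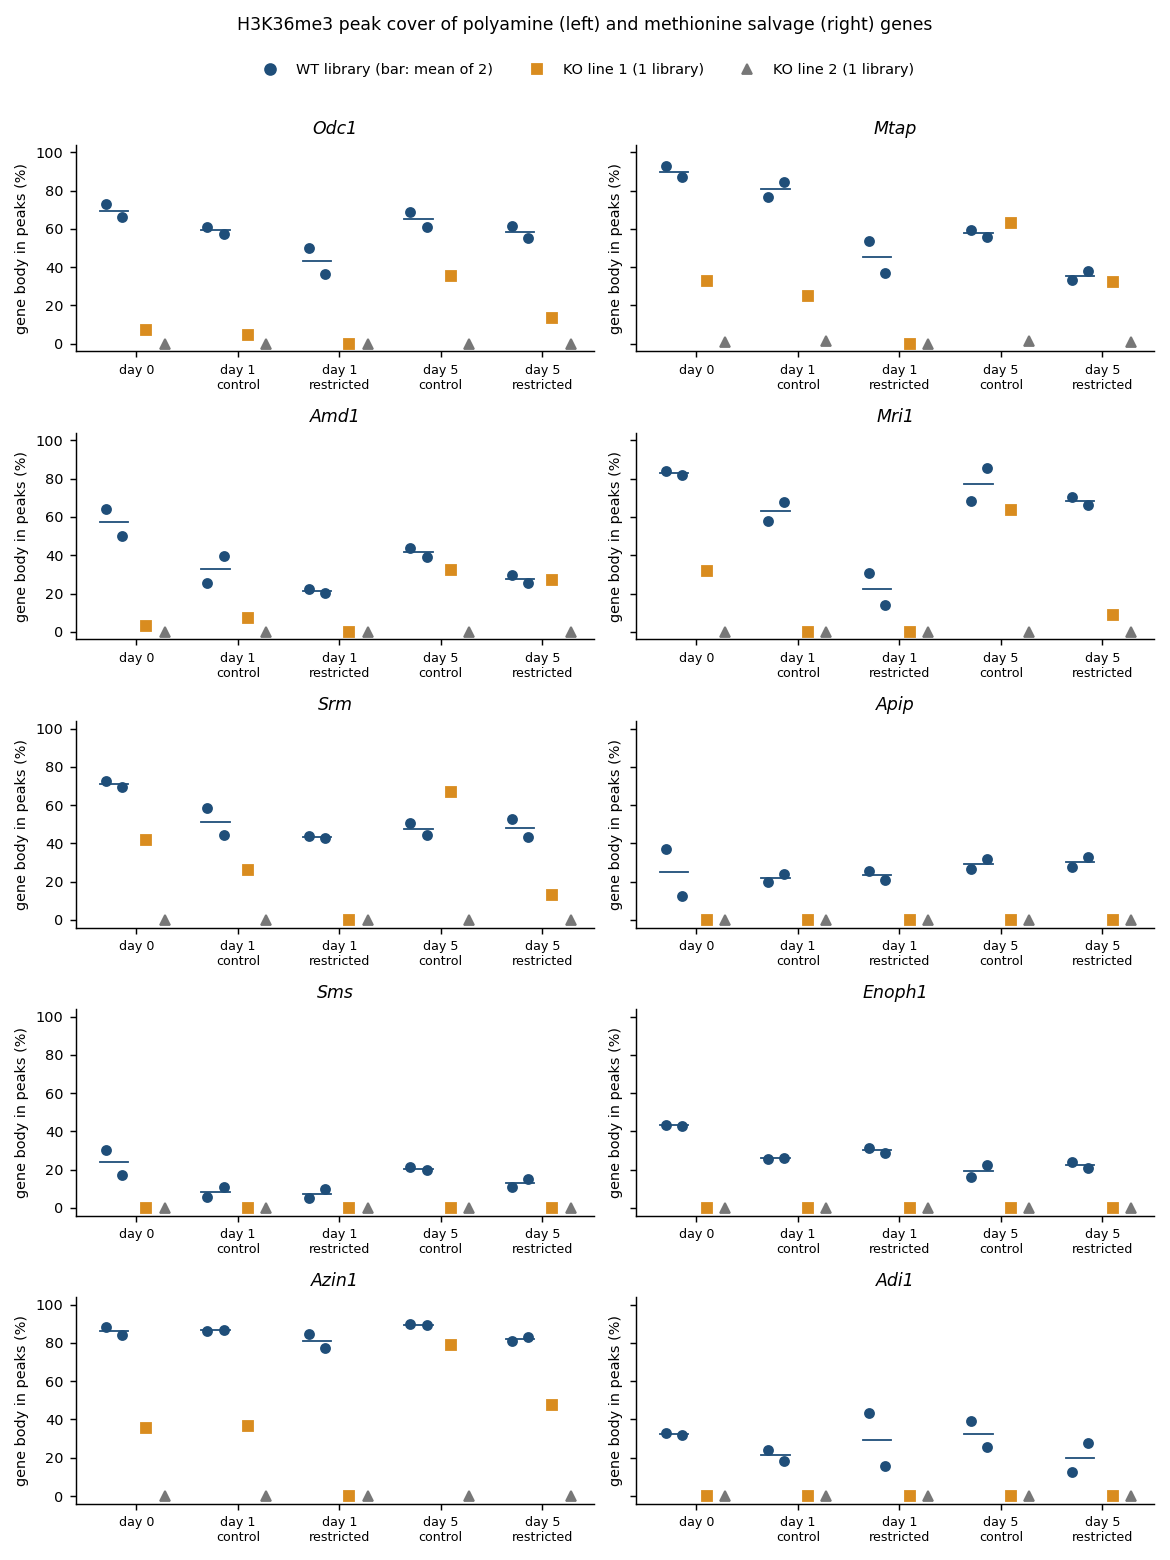
Cover of each member, as the percent of the gene body inside merged H3K36me3 peaks (vertical axis), in the 5 conditions (horizontal axis). Circles are the 2 WT libraries of a condition with a bar at their mean, squares are KO line 1 and triangles are KO line 2; Mri1 on restricted day 1 shows 30.7% and 14.2% in WT, and line 2 lies at or near 0 throughout.

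Methionine restriction lowered the cover of 2 members on day 1, Mtap and Mri1, both on the salvage side. None of the 5 polyamine members passed the test on that day. Mtap (chr4:89137370-89181090) encodes the phosphorylase that cleaves methylthioadenosine, the by-product of polyamine synthesis. Its cover was 76.9% and 84.4% in the control libraries of day 1, and 53.7% and 37.0% in the restricted libraries. The groups did not overlap. The difference was −35.3 percentage points (SE 5.81, 95% interval −48.6 to −22.0, n = 2 and 2; limma, Benjamini-Hochberg [BH] adjusted p = 0.00197). Mri1 (chr8:84250576-84257324) encodes the isomerase that acts next, on methylthioribose 1-phosphate. It was covered to 58.0% and 67.8% in control medium, and to 30.7% and 14.2% under restriction. These groups also did not overlap, and the difference was −40.4 points (SE 7.12, 95% interval −56.7 to −24.1; limma, adjusted p = 0.00275). At its 3′ end Mri1 shares 16.8% of its body with D8Ertd738e, and the call also held over the bases that lie in no other gene.

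The 2 calls have to be read against the whole gene set. Of 9513 genes tested, 36% were called lower and 2.37% higher on restricted day 1, and the median difference was −7.99 points, beside −6.84 points for the 10 members. The groups did not overlap for 6 members that were lower and 1 that was higher, against 59.6% and 10.8% of all genes tested. Mtap and Mri1 were at the 8.69th and 6.25th percentile of the differences of all genes. Median cover over the genes kept was 45.2% and 47.9% in the control libraries, and 34.2% and 28.5% in the restricted libraries. Centring each library on that median turned the split of called genes from 225 higher and 3421 lower to 3518 higher and 1245 lower. With all WT lists shortened to equal covered length it was 1085 higher and 1981 lower. Mtap at −20.1 points and Mri1 at −25.3 points stayed called after centring. Sms, Azin1, Apip, Enoph1 and Adi1 were then called higher. Of these, Sms and Azin1 had been negative before centring, and the other 3 were positive both before and after. Centring added the fall of the medians to every difference. Sms, with 5.85% and 10.9% in control medium, had less cover than that fall, so its sign after centring was fixed in advance.

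Odc1 (chr12:17544808-17551502), the rate-limiting enzyme of polyamine synthesis, had 61.0% and 57.5% cover on day 1 in control medium, and 50.1% and 36.4% under restriction. The restricted libraries were both lower, but the difference of −16.0 points missed the threshold (SE 5.55; limma, adjusted p = 0.0511). The estimate depended strongly on the processing. It was −54.9 points with peaks of a −log10 q of at least 3 (adjusted p = 0.000415), −22.8 points without replicate 1 of restricted day 1 (adjusted p = 0.0176) and −0.791 points after centring (adjusted p = 0.891). At the same −16.0 points it passed without limma's trend and robust settings (adjusted p = 0.0454) and with a replicate block (adjusted p = 0.0175), and it was called in 4 of 19 alternatives in all. Amd1 went from 25.6% and 39.8% to 22.4% and 20.4%, a difference of −11.3 points that did not pass (SE 6.11; limma, adjusted p = 0.181). Srm, at 58.3% and 44.3% in control medium, stood at 43.6% and 42.9% under restriction, and Azin1 at 86.4% and 86.7% stood at 84.6% and 77.3%. Neither difference passed. The later salvage enzymes had positive estimates instead. The difference was 1.43 points for Apip, 4.14 for Enoph1 and 8.12 for Adi1, with none past the threshold. The 2 restricted libraries of Adi1, the dioxygenase of the pathway, lay far apart at 43.2% and 15.5%.

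On day 5, Mtap was the only member called lower under restriction. It had 59.3% and 56.0% cover in control medium, and 33.3% and 37.9% under restriction. The difference was −22.0 points (SE 5.81, 95% interval −35.4 to −8.72, n = 2 and 2; limma, adjusted p = 0.0149). Over all genes tested, 41.5% were called lower and 4.34% higher, with a median difference of −9.16 points beside −7.49 points for the members. The groups did not overlap for 4 members that were lower and 0 that were higher, against 65.4% and 13.9% of genes. Centring turned the split of called genes from 413 higher and 3946 lower to 3757 higher and 1395 lower, and lists of equal length gave 1533 higher and 2096 lower. The Mtap call ended under both, at −5.36 points (adjusted p = 0.302) and −7.39 points (adjusted p = 0.346). It also ended, at nearly the same size, without replicate 1 of control day 5 (−20.4 points, adjusted p = 0.0884) and without replicate 1 of restricted day 5 (−19.7 points, adjusted p = 0.0837).

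Mri1 had high cover in both media on day 5, at 68.5% and 85.8% in control medium and 70.3% and 66.1% under restriction. The groups overlapped, and the difference of −8.96 points was not called (SE 7.12; limma, adjusted p = 0.336). The restriction effect on Mri1 was thus 31.5 points less negative on day 5 than on day 1 (SE 10.1, 95% interval 8.42 to 54.5). This difference between days had an unadjusted p of 0.0134 in limma and an adjusted p of 0.119, and 0 of the 10 members were called in it, against 5.21% of all genes tested either way. By unadjusted p under 0.05, 1 member passed, against 20.4% of all genes tested. On simulated data this test recovered 0% of differences of 30 points and 92% of those of 60 points. Only 200 genes were changed there, against 496 called in the data. The day 5 difference of Azin1 was −7.51 points (SE 2.82; limma, adjusted p = 0.0586), and that of Amd1 was −13.9 points (SE 6.11; limma, adjusted p = 0.0969). Odc1 had 68.9% and 61.1% in control medium and 61.7% and 55.2% under restriction, and its groups overlapped.

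Markers of differentiation and of the cell cycle moved with medium in the same libraries. The mean cover of the 10 myoblast and myotube genes was 46.0 to 46.3% on control day 1 and 10.3 to 13.4% on restricted day 1, when 7 of the 10, Myod1 and Myog among them, had no cover. On day 5 it was 76.2 to 76.7% and 23.7 to 26.2%. The mean over 5 proliferation genes went from between 86.7 and 88.7% to between 69.1 and 74.9% on day 1, and from between 47.4 and 51.8% to between 20.6 and 24.5% on day 5. The DNA replication gene Mcm3 went the other way within that list, from 83.6% and 86.0% to 89.4% and 89.2% on day 1 and from 20.6% and 19.1% to 75.7% and 68.1% on day 5. The part of these shifts in the values of Mtap and Mri1 was not tested.

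**Figure D2:**
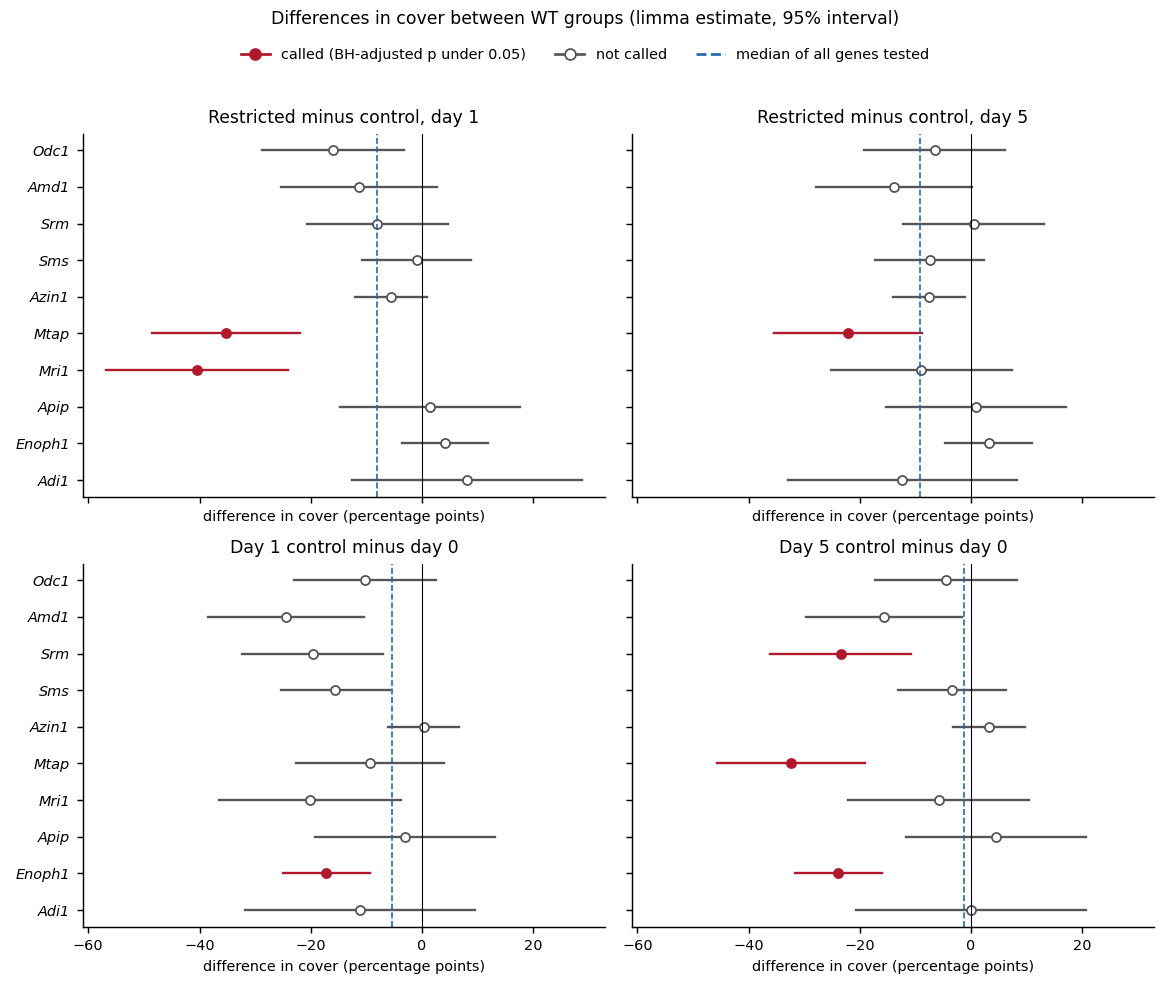
Differences in cover between WT groups in percentage points (horizontal axis) for the 10 members (vertical axis), as limma estimates with 95% intervals from 2 libraries per group. Filled points were called at a BH-adjusted p under 0.05, and the dashed line is the median of all genes tested, −7.99 points for restriction on day 1 and −9.16 points on day 5.

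The time course in control medium was compared with day 0 separately for day 1 and day 5, and both comparisons share the day 0 libraries. Enoph1 fell at both times, and Srm and Mtap fell by day 5. Enoph1 (chr5:100039028-100068925), the enolase-phosphatase of the salvage pathway, had cover of 43.4% and 42.8% at day 0, 25.8% and 26.1% on day 1, and 16.2% and 22.2% on day 5. Each later library was below both day 0 libraries. The difference was −17.2 points on day 1 (SE 3.40, n = 2 and 2; limma, adjusted p = 0.0250) and −23.9 points on day 5 (SE 3.40, n = 2 and 2; limma, adjusted p = 0.00102). Enoph1 was the only member called on day 1, when 5.72% of genes tested were called lower and 0.967% higher. That call ended with centring (−8.68 points, adjusted p = 0.233), with lists of equal length (−20.0 points, adjusted p = 0.159) and with the 2 groups fitted alone (−17.2 points, adjusted p = 0.149). It also ended without replicate 1 of day 0 (adjusted p = 0.0674), without replicate 1 or 2 of control day 1 (adjusted p = 0.128 and 0.113), and without replicate 1 or 2 of restricted day 5 (adjusted p = 0.0540 and 0.0551), which enter only through the shared spread. The day 5 call of Enoph1 held in all 19 alternatives.

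Srm (chr4:148591513-148594619), which encodes spermidine synthase, was covered to 72.4% and 69.4% at day 0 and to 50.5% and 44.4% on control day 5. The day 5 libraries were both lower (difference −23.5 points, SE 5.53; limma, adjusted p = 0.0138). Its call ended without replicate 1 of day 0 (adjusted p = 0.0514) and without replicate 2 of control day 5 (adjusted p = 0.0900). Mtap stood at 93.0% and 86.9% at day 0 and at 59.3% and 56.0% on control day 5. This difference of −32.3 points held in all 19 alternatives (SE 5.81; limma, adjusted p = 0.00372). These 3 calls among 10 members compare with 15.6% of genes called lower and 12.2% called higher, and the median difference was −5.16 points for the members and −1.17 points over all genes. The groups did not overlap for 4 members that were lower and 1 that was higher, against 36.1% and 25.8% of genes. Over the same interval the mean cover of the 5 proliferation genes went from between 91.1 and 92.4% to between 47.4 and 51.8%, and that of the myoblast and myotube genes from between 23.9 and 24.5% to between 76.2 and 76.7%. Their part in the result was not tested.

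Several polyamine members were lower on day 1 without passing the test. Amd1 (chr10:40287458-40302188) went from 64.4% and 49.9% at day 0 to 25.6% and 39.8% (difference −24.4 points, SE 6.11; limma, adjusted p = 0.0515). Sms, spermine synthase on the X chromosome, went from 30.5% and 17.3% to 5.85% and 10.9% (difference −15.6 points, SE 4.27; limma, adjusted p = 0.0657). Without replicate 2 of day 0 both were called, at −31.6 and −22.2 points. Mri1 went from 84.2% and 81.8% to 58.0% and 67.8%, which missed the threshold (difference −20.1 points, SE 7.12; limma, adjusted p = 0.127). In all, 8 members had day 1 libraries wholly below day 0 and 0 had them wholly above, beside 49.3% and 5.71% of all genes tested. The exceptions were Azin1, at 88.4% and 84.1% on day 0 against 86.4% and 86.7% on day 1, and Apip, the dehydratase, whose day 0 libraries differed most at 37.3% and 12.4%. Single day 0 libraries also decided 2 further day 5 values: Apip was called higher without replicate 1 of day 0 (16.99 points; limma, adjusted p = 0.0244), and Amd1 lower without replicate 2 (−22.9 points; limma, adjusted p = 0.0307).

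The position of the peaks along the genes added detail that the percent of cover does not give. Each stranded gene was split at its midpoint into an upstream and a downstream part. In 68 of 70 combinations of the 7 stranded members and 10 WT libraries, the downstream part was covered more than the upstream part. This is the usual layout here, since it applied to 86.1 to 87.9% of covered genes in the WT libraries. The exceptions were replicate 2 of restricted day 1 for Odc1 (37.9% upstream and 34.95% downstream) and for Mri1 (14.3% and 14.1%). The nearest cover to the 5′ end of any of these members began 0.889 kb into the gene in WT.

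In Mtap the uncovered stretch at the 5′ end grew with restriction. Cover began 1.73 and 1.80 kb from the 5′ end at day 0 and 1.88 and 1.95 kb on control day 1. It began at 4.95 and 12.4 kb on restricted day 1, at 3.94 and 5.27 kb on control day 5, and at 11.1 and 13.8 kb on restricted day 5. On both days the restricted libraries started farther in than the control libraries. Upstream cover was also lower under restriction over all genes with cover and a known strand: the mean over the upstream part was 27.9% and 29.4% on control day 1, 21.5% and 18.5% on restricted day 1, 34.1% and 31.6% on control day 5, and 21.8% and 22.4% on restricted day 5. The interior also opened. The downstream part of Mtap was covered to 87.4% and 89.0% on control day 1 and to 58.5% and 43.7% on restricted day 1. Over all genes with cover and a known strand, the mean over the downstream part went from 56.2% and 58.3% to 50.2% and 45.6%. Peaks touching the whole Mtap body numbered 10 and 8 on control day 1 and 11 and 12 on restricted day 1. In Mri1 the 3′ end was uncovered under restriction. Peaks reached the 3′ end in all 6 libraries of day 0 and control medium, and stopped 1.02 and 1.70 kb short of it on restricted day 1 and 0.209 and 0.601 kb short on restricted day 5. All of these gaps but that of 1.70 kb lay wholly within the stretch that Mri1 shares with D8Ertd738e.

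Enoph1 and Amd1 lost their 5′ cover while a block nearer the 3′ end remained. The upstream part of Enoph1 was covered to 21.6% and 17% at day 0, to 7.82% and 9.39% on control day 1, and to 0 and 2.34% on control day 5. Its downstream part still held 32.5% and 42.1% at that last time, against 65.1% and 68.7% at day 0. The upstream part of Amd1 had 38.2% and 24.8% cover at day 0, 0 and 6.07% on control day 1, 11.4% and 7.54% on control day 5, and 0 in all 4 restricted libraries, so 1 control library of day 1 was empty there too. Its downstream part kept 40.9 to 59.4% in these 4 libraries. No difference of Amd1 between WT groups was called in the fit reported. Over all genes with cover and a known strand, the mean over the upstream part was 35.5% and 33.2% at day 0. It was 27.9% and 29.4% on control day 1, and 34.1% and 31.6% on control day 5. In Odc1, the shortest stranded member, cover began 1.64 to 2.69 kb from the 5′ end in all 10 WT libraries.

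**Figure D3:**
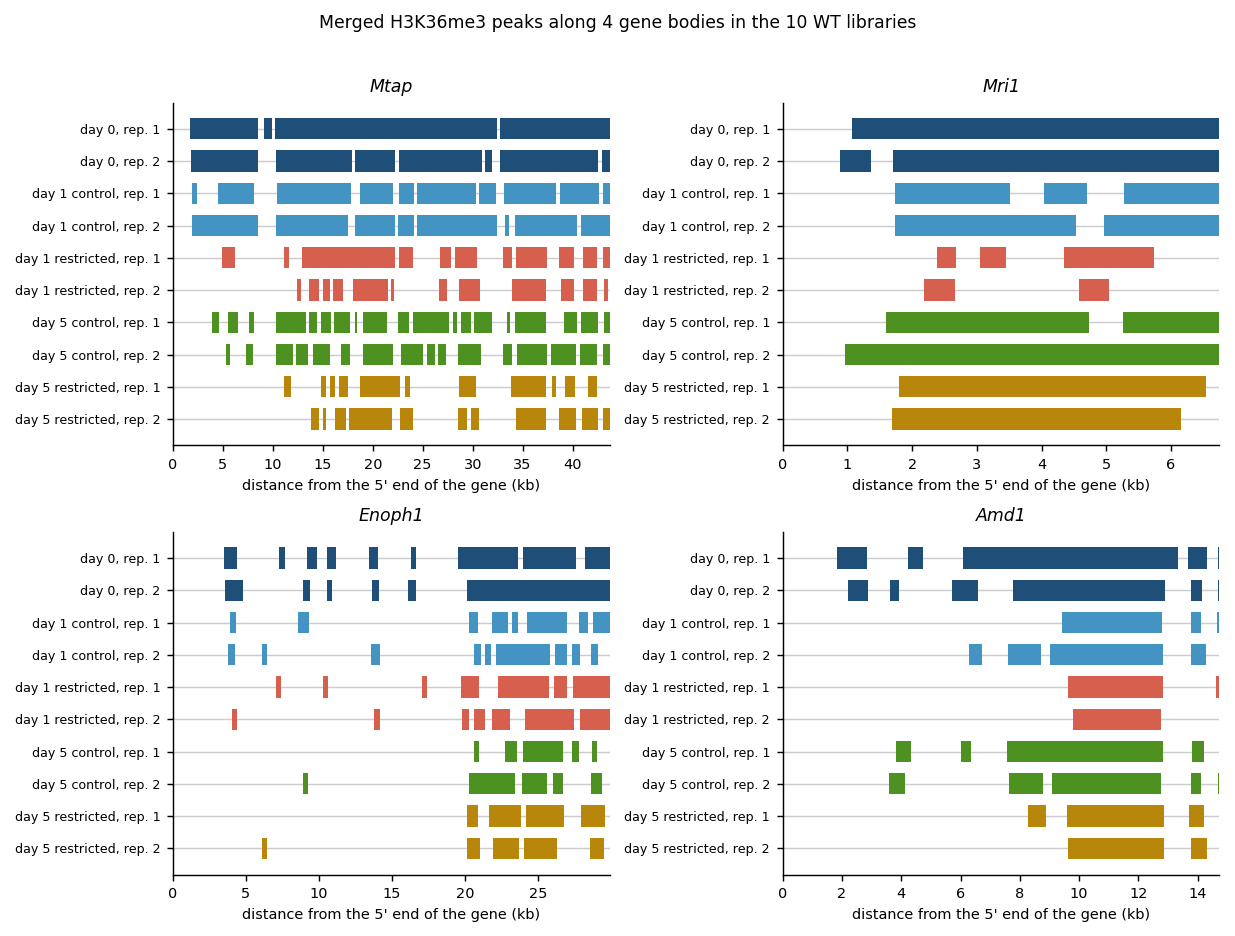
Merged H3K36me3 peaks (coloured bars) along Mtap, Mri1, Enoph1 and Amd1, with distance from the 5′ end in kb (horizontal axis) and 1 row for each of the 10 WT libraries (vertical axis). In Mtap the first peak begins 1.73 kb in at day 0 and as far as 13.8 kb in on restricted day 5, and in Amd1 the upstream part is empty in the 4 restricted libraries and in replicate 1 of control day 1.

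Wide cover and strong peaks did not always go together in these genes. The fold enrichment of each peak, as the authors deposited it, was ranked within its own list. The strongest peak over Odc1 lay at a median percentile of 98.5 across the WT libraries, that over Amd1 at 96.1, that over Mtap at 95.9 and that over Srm at 94.6. Mri1 had a mean cover near those of Mtap and Odc1, yet its strongest peak lay at a median percentile of 46.3, and its deposited fold was 2.36 to 3.91. Adi1 followed at a median percentile of 66.3 and Apip at 75.8. Enoph1 lay at 82.1 and Sms at 82.6. Azin1, the member with the widest cover, also had a high median percentile, 93.6.

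The KO lines had far less cover over the members than WT cells, and the 2 lines differed from each other. All 10 members were called higher in WT than in the KO lines over the 5 conditions, by 14.7 points for Sms to 65.2 points for Azin1 (exact permutation of genotype within condition, two-sided, adjusted p between 0.000670 and 0.00351). In this design 50.5% of all 19304 genes were called higher in WT and 0.901% lower. Among genes with a mean WT cover of at least 5%, a condition that all members meet, 90.2% were called higher in WT, so the members did as most marked genes did. The same 2 lines recur in every condition, and the permutation treats their libraries as independent, so these p-values do not measure variation between lines. The smallest p that the design allows is 0.000257, and 7 members reached it with every WT library above every KO library in all 5 conditions. Without KO line 2 the call of Mtap was lost (31.1 points, adjusted p = 0.0534), and with peaks limited to a −log10 q of at least 3 that of Adi1 was lost (7.67 points, adjusted p = 0.180).

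KO line 2 had no cover at 9 of the 10 members. Mtap was the exception, with 0.940% at day 0, 1.66% on control day 1, 1.38% on control day 5 and 1.15% on restricted day 5, from 1 or 2 peaks at most 0.501 kb wide. KO line 1 kept cover at 6 members, all but Sms, Apip, Enoph1 and Adi1, which had none in any KO library and were the 4 with the least cover in WT. At day 0 line 1 had 7.29% over Odc1, 2.89% over Amd1, 41.9% over Srm, 35.8% over Azin1, 32.8% over Mtap and 32.0% over Mri1. Each was below both WT libraries. On restricted day 1, when its list held 791 peaks, it had no cover at any member. Of all genes with a mean WT cover of at least 5%, line 1 had some cover at 46.9% at day 0, 35.6% and 71.7% on control days 1 and 5, and 2.43% and 49.6% on restricted days 1 and 5, and line 2 at 0.252 to 13.7%. Of the 10 members, line 1 had cover at 6 at day 0, 5 and 6 on control days 1 and 5, and 0 and 6 on restricted days 1 and 5.

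On day 5 in control medium line 1 had its highest cover at all 6 of these members. Mtap had 63.3% cover there, against 59.3% and 56.0% in WT, and Srm had 67.0%, against 50.5% and 44.4%. Line 1 thus exceeded both WT libraries at these 2 members. The share of all genes at which it exceeded both was not counted, so this cannot be called particular to the members. Its list covered 74.1 Mb beside 170.9 and 183.5 Mb in WT. Mri1 with 63.9%, Azin1 with 79.2%, Odc1 with 35.5% and Amd1 with 32.3% stayed below both WT libraries. On restricted day 5 line 1 had 27.0% over Amd1, between the WT values of 29.7% and 25.5%, and 13.1% over Srm, below the WT values of 52.6% and 43.4%. Each of these values is 1 library without a replicate, and the median cover of all genes kept in line 1 was 8.39% on control day 5 and 0 in its other 4 conditions.

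The wider pathway list held 29 genes, of which 19 passed the filter on mean cover and 5 (Oaz3, Sat2, Otc, Kyat3 and Amd2) had no cover in any WT library. On restricted day 1, 9 of the 19 were called lower and 0 higher, beside 36% and 2.37% of all genes, with a median of −10.3 points beside −7.99 over all genes. On restricted day 5, 10 were called lower, beside 41.5% of all genes, with a median of −11.4 points beside −9.16. Of the 4 genes on the antizyme side, Oaz3 was not tested and the other 3 were called lower at both times. The share of all genes called lower at both times was not counted. Oaz1, an antizyme that inhibits ODC1, had differences of −31.7 points on day 1 and −53.1 points on day 5 (limma, adjusted p = 0.0383 and 0.00338). The differences of its relative Oaz2 were −18.4 and −30.4 points. Those of the antizyme inhibitor Azin2 were −8.36 and −11.4 points, close to the medians of all genes. Azin2 had mean cover of only 8.36% and 11.4% in control medium and 0 in every restricted WT library. Its differences could therefore not have been larger.

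Further genes of the list called lower at both times were Slc7a1, a carrier of arginine and ornithine (−32.1 and −34.4 points), the polyamine transporter Atp13a3 (−20.5 and −25.9 points) and Dhps (−31.7 and −13.0 points), which starts hypusination of eIF5A from spermidine. So were Got1, a cytosolic aminotransferase (−16.1 and −28.1 points), and Il4i1 (−31.8 and −26.7 points), whose body lies wholly within other genes and whose cover is therefore uncertain. Sat1, the acetyltransferase of polyamine catabolism, was called lower on day 5 (−34.8 points; limma, adjusted p = 0.0157). Of the 19 genes, 0 were called in the difference between days, where 3 had an unadjusted p under 0.05 in limma, against 20.4% of all genes tested, and the estimates of Nit2 (23.5 points) and Oaz1 (−21.3 points) were among the 3 largest.

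In control medium 1 of the 19 was called lower from day 0 to day 1, beside 5.72% of all genes, Slc7a1 (−23.9 points; limma, adjusted p = 0.0190). The next largest difference, not called, was that of Got1 (−18.1 points). From day 0 to day 5, when 12.2% of all genes were called higher and 15.6% lower, Oaz2 was called higher (23.1 points) and Slc7a1 lower (−20.2 points).

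For the members with the widest and the narrowest range, the 3 genes with the most similar cover were taken from 9503 non-members, by the root mean square difference over the 10 WT libraries. The profile of Mri1 was nearest to those of Acadl (8.79 points), Paics (9.04 points) and Camta2 (9.10 points). That of Apip was nearest to Gm7072 (4.04 points), Tlk1 (4.23 points) and Ankib1 (4.33 points).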

How the data were processed

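Peak lists of 20 H3K36me3 libraries, 1 per library, were used; the input library was not used here. Per the labels' protocols, Drosophila chromatin was spiked in; its reads were not used to scale anything here. Per the submitters' processing notes, the build was GRCm38. The peak caller, its control and read filters are not given in the sources used here. Each peak carries a fold enrichment, which the authors deposited and which here only ranked peaks of 1 list among themselves. The authors also deposited significance values as −log10, of which −log10 q served to filter and to order peaks. The score column, also deposited by the authors, was not used. Peak names inside the KO lists call lines 1 and 2 replicates; the labels were followed.

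Peaks were merged per library with numpy 2.4.6 and pandas 2.3.3 in Python 3.11.15, and cover was computed over gene bodies from RefSeq GRCm38.p6, 19304 protein-coding genes of at least 2 kb. Strand was known for 15328 genes. WT libraries were compared with limma 3.58.1 (R 4.3.3, trend and robust settings) in a model of 5 groups, for genes with a mean WT cover of at least 5% (9514, of which 1 was constant and 9513 were tested), with Benjamini-Hochberg adjustment and calls at an adjusted p under 0.05. WT and KO libraries were compared by exact permutation within condition (7776 arrangements) over all 19304 genes. Members and pathway genes were chosen with earlier results of these data known. The text names all members, Setd2, those of the pathway list called in both restriction contrasts or among the 3 largest differences of a contrast, and, for the members of widest and narrowest range, the 3 nearest profiles; other genes are named as markers, overlaps or counts of 5 or fewer and were named after their values were seen. Results of 1 gene of the pathway list are not reported here. Alternatives covered the −log10 q, list length, centring, the cover filter, the groups fitted, limma's settings, an arcsine scale, overlapping genes, replicates left out and a replicate block. On simulated data with 200 of 9514 genes changed by 30 points, 62.5% were recovered for restriction on day 1 and 52% for restriction on day 5. The shares were 61.5% for day 0 to day 1 and 61% for day 0 to day 5. The changed genes all had middling cover. More genes were called in each of these comparisons of the data, where the adjustment is thus less strict. These shares therefore do not give the recovery in the data.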

Additional observations from a re-analysis of the deposited data

Results flagged for a closer look

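In 6 cases a KO line moved one way between day 0 and a later control day while both later WT libraries lay on the other side of both day 0 libraries. Each KO value is 1 library per line and condition, and the difference from WT was not tested. The share of all genes that met this rule was not counted, so these cases cannot be called particular to the members. Line 1 had some cover at 46.9% of the genes kept at day 0, 35.6% on control day 1 and 71.7% on control day 5. In KO line 1, Amd1 was 4.32 points higher on control day 1 than at day 0, while WT was 24.4 points lower on average (difference −24.4). On control day 5 line 1 was higher than at day 0 by 29.4 points for Amd1, by 25.0 points for Srm and by 30.5 points for Mtap, while the WT differences were −15.7, −23.5 and −32.3 points. In KO line 2, Mtap was 0.720 points higher on control day 1 and 0.439 points higher on control day 5 than at day 0, from at most 2 peaks. The line 1 list itself covered 17.7 Mb at day 0, 13.9 Mb on control day 1 and 74.1 Mb on control day 5. The part of list length in these values was not tested.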

How the results depend on the processing

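Across the settings that left out no replicate, 460 values of single members kept their direction and side of the threshold, 34 reversed (4 of them past the threshold only then), 18 kept their direction and passed the threshold only then, and 8 no longer passed it, and the cause was not tested. The calls of Mtap and Mri1 on restricted day 1, and of Mtap and Enoph1 from day 0 to day 5, held in all 19 alternatives run for each. The call of Mtap on restricted day 5 held in 14 of 19, that of Srm from day 0 to day 5 in 17 of 19 and that of Enoph1 from day 0 to day 1 in 12 of 20.

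With restriction on day 1, 4 members were called with lists of equal length (2 higher, 2 lower) and 7 after centring (5 higher, 2 lower). Sms turned to 1.06 points at a −log10 q of at least 3, 6.07 with equal lengths and 14.3 after centring. Centring also turned Amd1 to 3.87, Srm to 7.12 and Azin1 to 9.56 points. On day 5 the number of members called was 0 at a −log10 q of at least 3, 4 after centring (all higher), 3 with only the groups compared and 2 on the arcsine scale. With equal lengths it was 1, Enoph1 in place of Mtap and higher (20.7 points; limma, adjusted p = 0.0282). Adi1 turned to 10.3 points at the stricter −log10 q, 16.5 with equal lengths and 4.36 after centring, which also turned Odc1 to 10.2, Amd1 to 2.79, Sms to 9.22, Azin1 to 9.16 and Mri1 to 7.72 points. For the difference between days, the stricter −log10 q called 1 member (Odc1, 48.4 points) and turned Amd1 to 7.48, Azin1 to 8.56, Apip to 1.98, Enoph1 to 4.40 and Adi1 to 7.05 points. Equal lengths turned Azin1 to 0.987, Enoph1 to 0.465 and Adi1 to 13.8, and centring turned Apip to 0.995 and Enoph1 to 0.522. The arcsine scale called 307 genes there in place of 496.

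From day 0 to day 1, 636 genes and 1 member were called. Equal lengths gave 226 genes (119 higher, 107 lower) and 0 members, centring 335 genes (227 higher, 108 lower) and 0 members, and the 2 groups alone 0 genes (1882 at an unadjusted p under 0.05 in limma) and 0 members. Limma without trend and robust settings called 2 members. Apip turned to 0.709 points at the stricter −log10 q, 5.86 with equal lengths and 5.51 after centring, Azin1 to −0.250 at the stricter −log10 q and Sms to 0.296 with equal lengths. From day 0 to day 5, the 2 groups alone gave 1658 genes in place of 2643. Centring there gave 1615 higher and 1298 lower in place of 1157 and 1486, and for the difference between days the stricter −log10 q gave 301 higher and 247 lower in place of 154 and 342. Sms turned to 1.25 with equal lengths. Adi1, at 0.00718 points in the fit reported, turned to −24.8 at the stricter −log10 q (called lower, adjusted p = 0.0259), −11.0 with equal lengths, −0.464 over bases in no other gene and −0.00192 on the arcsine scale.

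Leaving out 1 replicate at a time gave 2356 to 3994 genes and 2 to 4 members for restriction on day 1, and 2799 to 4655 genes and 0 to 2 members on day 5. It gave 215 to 647 genes and 0 members for the difference between days, 138 to 1010 genes and 0 to 3 members from day 0 to day 1, and 1844 to 2646 genes and 2 to 4 members from day 0 to day 5. Where an arm was left with 1 library, that library was assumed to vary like the other groups. The differences that changed sign were, on restricted day 1, Sms (−3.46 to 1.61 points), Apip (−0.856 to 3.72) and Adi1 (−5.72 to 21.9), and on day 5 Srm (−4.09 to 5.15) and Apip (−1.64 to 3.52). Between days they were Amd1 (−9.65 to 4.50), Azin1 (−5.53 to 1.75), Apip (−3.08 to 2.08) and Enoph1 (−3.96 to 2.03). From day 0 to day 1 they were Azin1 (−1.86 to 2.44) and Apip (−15.4 to 9.47), and to day 5 Sms (−10.0 to 3.20), Mri1 (−14.5 to 2.84), Apip (−7.91 to 17) and Adi1 (−6.76 to 6.77). WT against the KO lines gave 9675 to 9935 genes and 10 members with a WT replicate left out.

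The replicate numbers did not pair the libraries: deviations of same-numbered libraries correlated between −0.439 and 0.0614 over pairs of WT groups. A fit with the replicate number as a block called 3440 genes for restriction on day 1, 4177 on day 5, 399 for the difference between days, 466 from day 0 to day 1 and 2457 from day 0 to day 5, and it also called Odc1 on restricted day 1. With the day 0 numbers crossed, chosen after seeing the data, the block called 575 genes and 2 members from day 0 to day 1.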
